A study of Mus musculus with 16 samples.

Results

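The distal segment of mouse chromosome 17 stood out in the RNA of 3 embryonic stem cell lines that carry mutant CTCF transgenes, and 59 of its genes are described here, of 55291 genes in the deposited table. The 59 genes were chosen because they lie on chromosome 17 from Clip4 to its distal end (mm10) and were listed with their mutant over WT ratio in view, which was above 1 for nearly all of them. The rule that lists them names both that ratio in each line and medium and the response to the medium within each line. The values below therefore describe the listed genes, and differences in level from WT carry no p-value. Calls were made for the medium response, for its differences from WT and for differences between mutant lines. They stand beside the share of all tested genes and support nothing. All 59 genes passed the filter on low counts, which asked for 10 normalised counts or more on average. Annotated positions fit the label: each of the 59 lies on chromosome 17 between the start of Clip4 at position 71768473 and the end of 2700099C18Rik at position 94775132.

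RNA was sequenced from 16 libraries of E14Tg2a, a mouse embryonic stem cell line of strain 129/Ola grown without feeder cells. In all groups the cell's own CTCF is fused to a degron, through which auxin has the protein broken down, and a doxycycline-inducible transgene replaces it with CTCF R342C, CTCF K365T, CTCF Q418R or wild-type CTCF (WT). All cultures received the auxin indole-3-acetic acid at 500 µM and doxycycline at 1 µg/ml, for 2 days per the treatment protocol. Each line was grown for 3 days without LIF (leukemia inhibitory factor), CHIR99021 and PD0325901, called no LIF below, or in medium that holds LIF, 3 µM CHIR99021 and 1 µM PD0325901. There are 8 groups of 2 libraries, 1 group per line and medium, and no label says that they are separate cultures, so p-values measure only the spread between these libraries. Each genotype is 1 line, so that a difference due to the CTCF change and any other difference between the lines cannot be told apart. No DNA measurement was analysed here.

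The recovered depth was 19721363 to 31935381 reads per library. Ctcf, whose reads can come from the degron allele or the transgene, had 5292 to 8585 normalised counts in all libraries, which does not tell the alleles apart. The 5 pluripotency markers summed to 1522 to 2508 TPM, a level scaled for gene length, in every library. The 6 naive markers summed to 236 to 625 TPM in the libraries without LIF, against 2832 to 4386 TPM in the libraries in LIF. The 5 formative and primed markers summed to 346 to 881 TPM without LIF, against 31.2 to 60.0 TPM in LIF. The 10 fibroblast and feeder markers summed to 69.8 to 161 TPM without LIF, against 5.10 to 9.48 TPM in LIF, with 2 to 4 of the 10 at 0 in both libraries of a group and S100a4 at 0 in all groups. The 5 endoderm markers summed to 13.4 to 20.4 TPM without LIF and 7.09 to 12.9 TPM in LIF, and the 5 trophectoderm markers to 93.5 to 145 TPM and 52.2 to 65.7 TPM. The part of any such cells in the medium responses below was not tested, and in bulk RNA a change in the share of a cell type cannot be told apart from a change in RNA per cell. WT replicate 2 without LIF stood apart in that 6.88% of its normalised counts came from structural RNA genes, against 2.27% to 5.05% in the other 15 libraries. Summaries of the differences from WT are given with and without it.

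CTCF is a zinc finger protein that binds DNA through a long motif and, with cohesin, holds the bases of chromatin loops. Its binding at loop bases and at some promoters is known to shape which genes are active. The genes of the distal segment belong to no single pathway. They include signalling proteins (Sos1, Prkce, Map4k3), chromatin and repair proteins (Dpy30, Msh6), RNA binding proteins (Srsf7, Zfp36l2) and membrane and cytoskeleton proteins (Epcam, Atl2, Spast), and what they share by definition is their place on 1 chromosome arm.

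Sequence at the start sites was inspected because CTCF is the protein that differs between the lines. The RefSeq promoter table (GRCm38.p6), which holds 250 bases before and 50 after each start, had 45 of the 59 genes. The letters AGNNGGC, from the core of the known CTCF motif, were searched on both strands, alone and with CCANN directly before them. With CCANN they occurred in 1 of these 45 windows (2.22%), that of Memo1, and in 797 of all 32851 windows (2.43%). Alone, which includes those matches, they occurred in 33 of 45 (73.3%) and in 19640 of 32851 (59.8%). The 45 are 1 window per gene, that nearest the annotated gene start, while the 32851 windows include every start site. The median GC content was 64% in the 45 windows and 52.7% in all windows, so that the shares were not compared at like base composition. The 4 windows printed here are those of the genes with the largest and the smallest average difference from WT among those with a mean of at least 100 (Clip4 and Ypel5), of the second largest (Kcng3) and of the only gene with the longer match (Memo1). The windows are chr17:71769441-71769740 (plus strand) for Clip4, chr17:83631846-83632145 (minus strand) for Kcng3, chr17:72836378-72836677 (plus strand) for Ypel5 and chr17:74294814-74295113 (minus strand) for Memo1. They run 5′ to 3′ on the gene's strand, with matches to AGNNGGC on either strand in capitals.
Clip4: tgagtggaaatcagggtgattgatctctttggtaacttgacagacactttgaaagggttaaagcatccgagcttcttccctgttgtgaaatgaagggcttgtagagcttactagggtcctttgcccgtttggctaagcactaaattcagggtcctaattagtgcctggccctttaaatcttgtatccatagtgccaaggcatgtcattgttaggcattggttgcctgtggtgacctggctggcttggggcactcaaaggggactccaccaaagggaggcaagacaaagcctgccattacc
Kcng3: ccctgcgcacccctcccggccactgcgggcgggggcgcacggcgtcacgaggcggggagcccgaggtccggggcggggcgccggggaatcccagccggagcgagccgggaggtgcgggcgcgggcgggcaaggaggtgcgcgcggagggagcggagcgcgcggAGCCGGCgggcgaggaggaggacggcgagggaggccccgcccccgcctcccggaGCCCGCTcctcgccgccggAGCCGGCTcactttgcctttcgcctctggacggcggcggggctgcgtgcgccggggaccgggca
Ypel5: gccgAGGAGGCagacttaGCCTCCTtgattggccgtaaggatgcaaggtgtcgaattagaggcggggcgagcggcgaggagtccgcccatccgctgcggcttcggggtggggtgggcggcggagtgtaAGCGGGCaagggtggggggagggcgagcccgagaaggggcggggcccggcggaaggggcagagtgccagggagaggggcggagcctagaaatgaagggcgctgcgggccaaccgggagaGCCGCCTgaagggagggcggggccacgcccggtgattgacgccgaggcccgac
Memo1: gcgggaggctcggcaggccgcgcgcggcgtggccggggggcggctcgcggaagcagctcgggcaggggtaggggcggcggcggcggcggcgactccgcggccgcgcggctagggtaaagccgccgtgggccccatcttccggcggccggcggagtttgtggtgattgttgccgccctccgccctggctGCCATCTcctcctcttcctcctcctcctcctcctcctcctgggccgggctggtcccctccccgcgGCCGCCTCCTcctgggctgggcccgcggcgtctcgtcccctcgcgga
Clip4, which differed most from WT, had 0 matches to the short letters, while Ypel5, which differed least, and Kcng3 had 4 each. These windows were picked by their genes' difference from WT, so they show neither a relation nor the lack of one, and a match or its lack says nothing of binding.

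The summed RNA of the 59 genes took about the same share of each mutant library and a lower share of each WT library. Without LIF it was 0.452% and 0.445% of all normalised counts in R342C cells, 0.403% and 0.423% in K365T cells and 0.455% and 0.445% in Q418R cells, against 0.233% and 0.210% in WT cells. In LIF it was 0.448% and 0.451% in R342C cells, 0.420% and 0.468% in K365T cells and 0.456% and 0.452% in Q418R cells, against 0.228% and 0.220% in WT cells. No mutant library overlapped a WT library. The ratio of the summed normalised counts, mutant over WT, was 1.99, 1.77 and 1.93 without LIF and 1.97, 1.95 and 2.00 in LIF for R342C, K365T and Q418R. The ratios without LIF were 1.94, 1.73 and 1.88 when WT replicate 2 was left out.

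**Figure D1:**
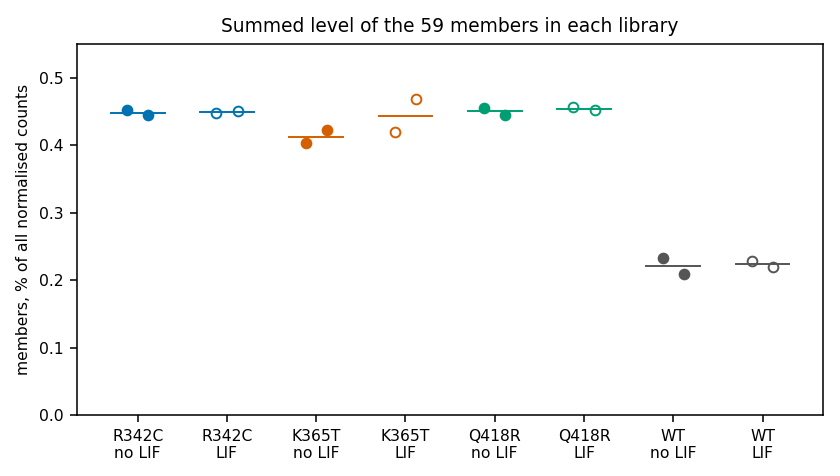
Summed normalised counts of the 59 genes as a percent of all normalised counts of a library (y axis), for each line and medium (x axis), with 1 point per library, filled without LIF and open in LIF, and a bar at the mean of 2 libraries. The mutant libraries lie between 0.403% and 0.468% and the WT libraries between 0.210% and 0.233%.

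Gene by gene, the differences from WT clustered near a log2 value of 1. In R342C cells the median log2 difference over the 59 genes was 1.01 without LIF (2.01-fold; SD over genes 0.203, range 0.55 to 1.53) and 1.04 in LIF (2.05-fold; SD 0.166, range 0.58 to 1.50). In K365T cells it was 0.85 without LIF (1.81-fold; SD 0.343, range -0.08 to 1.63) and 0.88 in LIF (1.84-fold; SD 0.429, range -0.14 to 2.28). In Q418R cells it was 0.95 without LIF (1.93-fold; SD 0.31, range 0.21 to 1.59) and 0.98 in LIF (1.97-fold; SD 0.255, range 0.23 to 1.79). The spread between genes was thus lowest in R342C and highest in K365T in each medium. The median over all tested genes was between -0.02 and 0.01 in these 6 comparisons. In each group the median over the 59 genes of the log2 difference between the 2 replicates was taken. Pooled over the 8 groups, these medians gave an SD of 0.0482 for 1 library. Without WT replicate 2 without LIF the medians without LIF were 0.97 for R342C, 0.85 for K365T and 0.92 for Q418R.

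Both mutant libraries lay above both WT libraries for 57 of the 59 genes in R342C, 53 in K365T and 55 in Q418R without LIF, and for 59, 58 and 58 in LIF. Over all 17757 tested genes the same held for 15.1%, 24% and 24.4% without LIF and for 19.4%, 27% and 25.1% in LIF. Against WT replicate 1 alone the counts without LIF were 57, 56 and 58, and the shares of all tested genes 29.5%, 32.7% and 34.3%. These counts follow from how the genes were chosen. In all 6 comparisons together, 52 of the 59 genes were without overlap, against 1.46% of all tested genes, and 57 had a positive difference, against 11.8%. These counts of the 59 genes were 55 and 57 without WT replicate 2 without LIF. The 7 genes with an overlap in at least 1 comparison were Ypel5, Lbh, Rasgrp3, Dync2li1, Prkce, Epas1 and Rhoq. Of the 354 differences 352 were above 0, and the exceptions were both in K365T: Ypel5 at -0.08 without LIF and Lbh at -0.14 in LIF. Both turned positive under an alternative, Ypel5 to 0.03 without WT replicate 2 without LIF, 0.26 without K365T replicate 2 and 0.09 on TPM, and Lbh to 0.10 without WT replicate 2 in LIF. Of the positive ones, Epas1 in K365T without LIF turned to -0.02 without K365T replicate 1, Lbh in Q418R in LIF to -0.01 without WT replicate 1, and Rasgrp3 in Q418R without LIF to -0.01 without WT replicate 2.

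The tested genes of the segment that were not listed had medians below those of the 59 genes and a wider spread. Of 199 genes with a position from Clip4 onward, the 59 and 26 more passed the filter. The 26 had medians of 0.95, 0.73 and 0.89 without LIF and 0.80, 0.83 and 0.92 in LIF for R342C, K365T and Q418R. Their SD over genes was 0.407 to 0.731 and their range -0.59 to 3.01 over the 6 comparisons, and 69.2% to 88.5% of them were above WT without overlap. Of the 26, 13 averaged under 100 normalised counts. The 713 tested genes of chromosome 17 proximal to Clip4 had medians of -0.03, -0.12 and -0.06 without LIF and -0.04, -0.13 and -0.06 in LIF. Without WT replicate 2 without LIF the medians without LIF were 0.92, 0.68 and 0.88 for the 26 genes and -0.04, -0.15 and -0.09 for the 713. Among genes that averaged 100 normalised counts or more, with differences averaged over both media, the share above 0.5 was 100% in R342C, 84.6% in K365T and 84.6% in Q418R for the 13 distal genes that were not listed. It was 0.982%, 1.96% and 2.95% for the 509 proximal genes. The 13 ran from 0.23 (Pkdcc, a secreted tyrosine kinase) to 1.23 (Plekhh2) in the average over 3 mutants and 2 media, with a median of 0.88. Pkdcc differed from WT by 0.59, -0.33 and -0.05 without LIF and by 0.53, 0.49 and 0.15 in LIF for R342C, K365T and Q418R, and its average was 0.42 without WT replicate 2 without LIF. These genes were named after their values were seen.

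**Figure D2:**
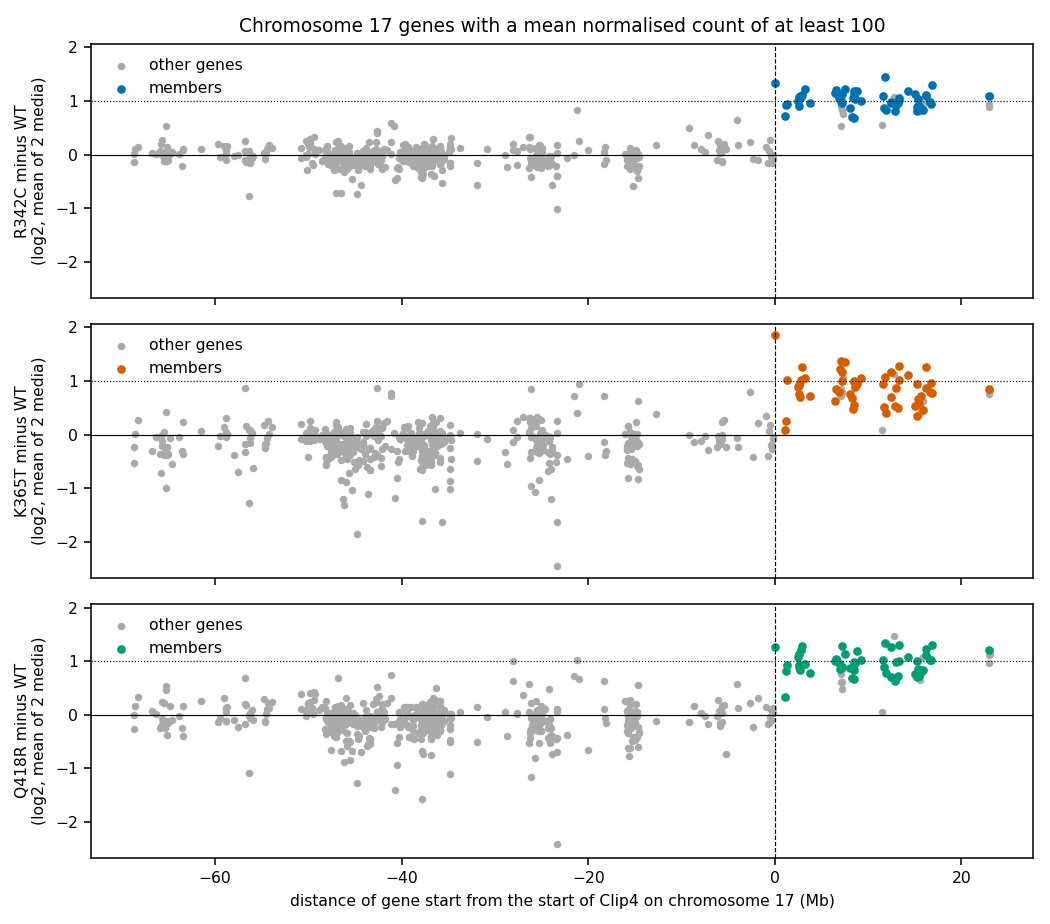
Log2 difference between a mutant line and WT, averaged over both media (y axis, 1 panel per mutant), against the distance of each gene's start from the start of Clip4 along chromosome 17 in Mb (x axis), for genes that averaged 100 normalised counts or more. The 509 genes proximal to Clip4 scatter around 0, and the chosen genes (coloured) and the other distal genes (grey) lie mostly near 1 from Clip4 onward.

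Along the chromosome the values changed between the neighbouring genes Wdr43 and Clip4, where the listed genes begin. The 5 nearest tested genes with a mean of at least 100 on the proximal side had average log2 differences, over 3 mutants and 2 media, of 0.13 (Emilin2, a matrix glycoprotein), -0.05 (Smchd1, a chromatin protein of the inactive X chromosome), -0.17 (Ndc80, a kinetochore subunit), 0.01 (Trmt61b) and -0.03 (Wdr43). Wdr43 ends at position 71659031. The first 5 on the distal side were Clip4, starting at 71768473, with 1.49, Ypel5 with 0.38, Lbh with 0.67, Lclat1 with 0.96 and Memo1 with 1.00. Of the 5 inside, Ypel5 and Lbh were closest to the level of the proximal genes. Between Wdr43 and Clip4 the differences in the 6 comparisons did not overlap, with -0.14 to 0.07 for Wdr43 and 1.17 to 2.28 for Clip4. Clip4 was listed with these differences in view, so that the lack of overlap follows from the choice and is no test. Comparisons within a medium share their WT libraries. Without WT replicate 2 without LIF the averages were -0.07 for Wdr43, 1.60 for Clip4, 0.43 for Ypel5, 0.45 for Lbh, 1.02 for Lclat1 and 0.96 for Memo1.

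The medians of the listed genes were close to each other along the segment. In 4 stretches separated by more than 2 Mb without a member, the median of the average differences was 0.96 for the 15 genes from Clip4 to Fam98a (71.77 to 75.55 Mb), 0.99 for the 18 from Crim1 to Thumpd2 (78.2 to 81.07 Mb) and 0.93 for the 25 from Eml4 to Ston1 (83.35 to 88.66 Mb). The last stretch holds only 2700099C18Rik at 94.75 Mb, with 1.05. The 4 values were 0.96, 0.96, 0.92 and 1.12 without WT replicate 2 without LIF. Pkdcc, which was not listed and lies within the segment, had 0.23. Near 2700099C18Rik, Mettl4 had 0.92, Gm1976 0.92 and Gm20939, the most distal tested gene, 1.02. In the gap between Ston1 and 2700099C18Rik, Gm10184 had 0.38 at a mean of 23.7 normalised counts.

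**Figure D3:**
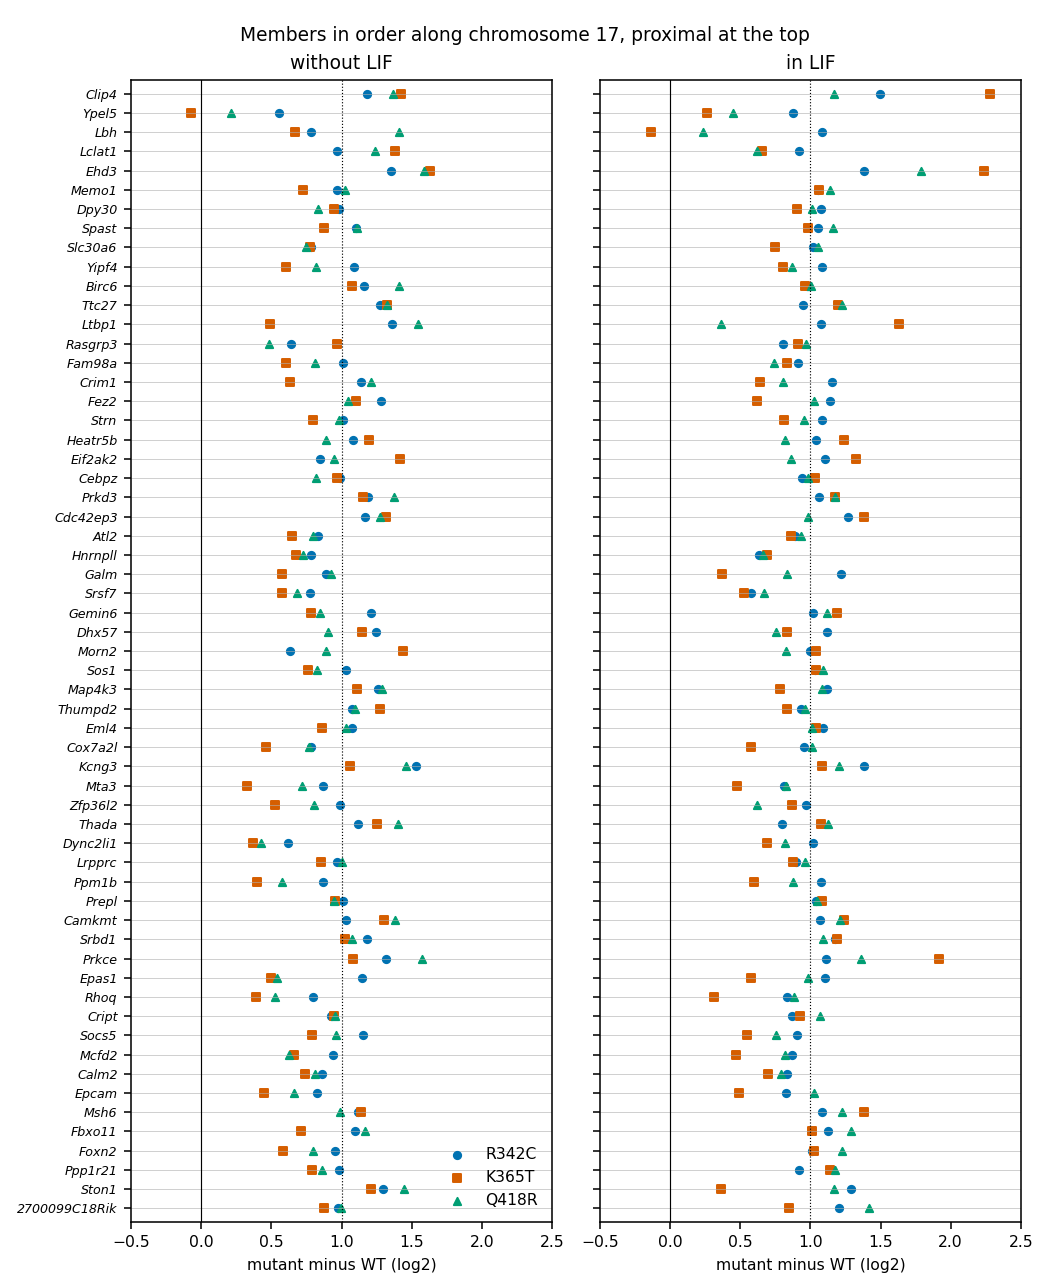
Log2 difference of each mutant line from WT (x axis) for the 59 genes in order along chromosome 17, proximal at the top (y axis), without LIF on the left and in LIF on the right. Circles are R342C, squares K365T and triangles Q418R, and the dotted line marks a log2 value of 1. R342C values stay between 0.55 and 1.53, while K365T values spread from -0.14 to 2.28.

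The 59 genes include high and low expressed ones. Mean TPM over the libraries spanned 0.668 for Prkce, a protein kinase C, to 529 for Calm2, one of the genes for the calcium sensor calmodulin. Msh6, a DNA mismatch repair protein, followed with 374 TPM and Dpy30, a subunit of histone H3 lysine 4 methyltransferases, with 181 TPM. On the scale of normalised counts Dpy30 had 1524 and 1828 in R342C cells, 1552 and 1722 in K365T cells and 1554 and 1454 in Q418R cells, against 849 and 841 in WT cells, without LIF, and 2042 and 2327 in R342C cells, 1715 and 2174 in K365T cells and 2245 and 1935 in Q418R cells, against 1045 and 1017 in WT cells, in LIF. Dpy30 values of the mutant lines were close to each other and above all WT values of the same medium. The average log2 difference from WT was within 0.25 of 1 for 45 of the 59 genes, with a median of 0.96 and a range of 0.38 for Ypel5 to 1.66 for Ehd3. Leaving out WT replicate 2 without LIF, it was within 0.25 of 1 for 47 genes, with a median of 0.96, and Ehd3 had 1.46.

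By role, the average differences covered like ranges. The 15 membrane, cytoskeleton and transport genes ran from 0.66 (Dync2li1, a light intermediate chain of the ciliary dynein) to 1.66 (Ehd3, of endosome recycling), with a median of 1.02. The 14 signalling genes ran from 0.62 (Rhoq) to 1.39 (Prkce), with a median of 0.95. The 11 genes of RNA and translation ran from 0.63 (Srsf7, a splicing factor) to 1.13 (Thada), with a median of 1.00. The 7 genes of chromatin, transcription and DNA repair ran from 0.67 (Mta3, of the NuRD complex) to 1.15 (Msh6), with a median of 0.93. The 6 metabolic genes ran from 0.76 (Cox7a2l, of respiratory supercomplexes) to 1.21 (Camkmt), with a median of 0.91. The 3 ubiquitin genes had 0.38 (Ypel5), 1.07 (Fbxo11, an F-box protein) and 1.10 (Birc6, an inhibitor of apoptosis), and the 3 remaining genes had 0.97 (Morn2), 1.05 (2700099C18Rik) and 1.21 (Ttc27). Without WT replicate 2 without LIF the medians, in the same order and up to the metabolic genes, were 1.00, 0.97, 0.95, 0.90 and 0.94.

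Clip4, a member of the CAP-Gly family of microtubule linkers and the most proximal of the 59 (plus strand), had the largest average difference among genes with a mean of at least 100. Its normalised counts without LIF were 264 and 258 in R342C cells, 335 and 286 in K365T cells and 280.3 and 318 in Q418R cells, against 95.7 and 134 in WT cells. The LIF cultures had 212 and 269 in R342C cells, 419 and 408 in K365T cells and 191 and 187 in Q418R cells, against 64.6 and 104 in WT cells. All mutant values were above all WT values of the same medium, and in LIF those of K365T were the highest. The log2 differences from WT were 1.18, 1.42 and 1.37 without LIF and 1.50, 2.28 and 1.17 in LIF for R342C, K365T and Q418R.

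Kcng3, a modifier subunit of voltage-gated potassium channels, had normalised counts of 376 and 306 in R342C cells, 248 and 239 in K365T cells and 270.4 and 384 in Q418R cells, against 114 and 116 in WT cells, without LIF. With LIF present, the values were 66.9 and 88.4 in R342C cells, 80.7 and 47.2 in K365T cells and 57.2 and 79.7 in Q418R cells, against 23.4 and 31.3 in WT cells. All mutant values were above the WT values of the same medium, and the values without LIF were above those in LIF in each line. The average difference from WT was 1.29 on the log2 scale (2.44-fold).

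Cdc42ep3, an effector of the GTPase Cdc42, moved the other way with the medium at a like distance from WT. Its normalised counts without LIF were 187 and 169.8 in R342C cells, 235 and 166 in K365T cells and 188 and 196 in Q418R cells, against 66.0 and 89.8 in WT cells. In LIF they were 437 and 463 in R342C cells, 485 and 493 in K365T cells and 367 and 369 in Q418R cells, against 182 and 188 in WT cells. The average difference from WT was 1.23 (2.35-fold), and 1.34 without WT replicate 2 without LIF. WT cells in LIF had about as much Cdc42ep3 RNA as the R342C and Q418R cells without LIF.

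Ypel5, a subunit of the CTLH ubiquitin ligase, had the smallest average difference, 0.38 (1.30-fold). Without LIF its normalised counts were 1408 and 996 in R342C cells, 963 and 605 in K365T cells and 1052 and 828 in Q418R cells, against 746 and 869 in WT cells. Cultures in LIF held 1408 and 1230 in R342C cells, 891 and 828 in K365T cells and 951 and 997 in Q418R cells, against 748 and 682 in WT cells. Without LIF the K365T and Q418R values overlapped those of WT, while in LIF no mutant value overlapped them.

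Rhoq, the small GTPase TC10, had the next smallest average difference among genes with a mean of at least 100, 0.62 (1.54-fold), which was 0.80 without WT replicate 2 without LIF. Without LIF its normalised counts were 1411 and 1397 in R342C cells, 1123 and 995 in K365T cells and 973 and 1395 in Q418R cells, against 633 and 1030 in WT cells. The LIF cultures had 329 and 358 in R342C cells, 258 and 222 in K365T cells and 362 and 350.5 in Q418R cells, against 182 and 201 in WT cells. WT replicate 2 without LIF, the library with more structural RNA, was the higher WT value without LIF and overlapped K365T and Q418R.

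At the distal end, Ston1, the endocytosis adaptor stonin 1, had normalised counts of 300.4 and 316 in R342C cells, 295 and 285 in K365T cells and 317 and 371 in Q418R cells, against 118 and 129 in WT cells, without LIF. With LIF present, the values were 577 and 659 in R342C cells, 306 and 339.7 in K365T cells and 516 and 624 in Q418R cells, against 269.5 and 232 in WT cells. The K365T values in LIF were closer to those of WT than to those of the other mutants. The pseudogene 2700099C18Rik, the most distal of the 59, had 336 and 325 in R342C cells, 289 and 327 in K365T cells and 300.1 and 374 in Q418R cells, against 150.3 and 183 in WT cells, without LIF. In LIF it had 422 and 449 in R342C cells, 315 and 362 in K365T cells and 487 and 519.7 in Q418R cells, against 188 and 185 in WT cells, with every mutant value above every WT value.

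**Figure D4:**
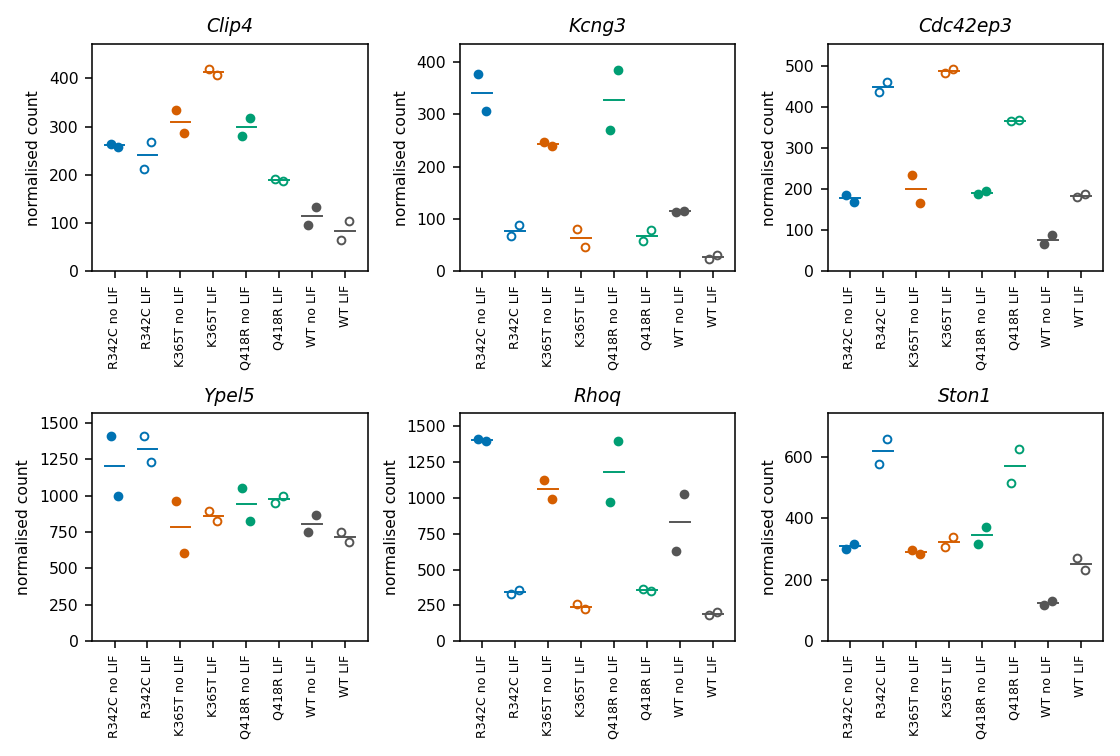
Normalised counts per library (y axis, from 0) of 6 genes, with 1 point per library, filled without LIF and open in LIF, and a bar at the mean of 2 libraries. R342C, K365T, Q418R and WT run from left to right, each without LIF and in LIF. Kcng3 and Rhoq are higher without LIF in every line, Cdc42ep3 is higher in LIF in every line, and Ston1 is lower in K365T than in R342C and Q418R cells in LIF.

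The response to LIF withdrawal was fitted within each line over all tested genes. The rule that lists the 59 genes names this response, so that the p-values below describe them and are no independent test. Without LIF, 13 of the 59 genes rose and 20 fell in R342C, 7 rose and 15 fell in K365T, 13 rose and 21 fell in Q418R, and 11 rose and 19 fell in WT (limma on log2 of the normalised count plus 4, Benjamini-Hochberg adjusted p below 0.05 over 17757 genes). Each count of rises over the 59 genes, here and below, includes Rasgrp3. That gene passed the filter only through the libraries without LIF and carries no test. Over all tested genes 23.3% rose and 23.9% fell in R342C, 21.6% and 23% in K365T, 23% and 23.5% in Q418R, and 23.8% and 24.9% in WT. The median response of the 59 genes was 0.01, -0.12, -0.06 and -0.14 in R342C, K365T, Q418R and WT, against -0.00, -0.01, -0.02 and -0.01 over all tested genes. The medians near 0 had no stable direction: that of Q418R was 0.03 with upper-quartile scaling and 0.09 on TPM, that of K365T 0.02 without K365T replicate 1 without LIF, that of R342C -0.04 without R342C replicate 1 in LIF, and that of WT -0.00076 without WT replicate 2 without LIF. The split moved with the scaling: with upper-quartile scaling 14 rose and 15 fell in K365T and 16 rose and 16 fell in WT, with DESeq2 11 rose and 15 fell in K365T, and on TPM 12 rose and 13 fell in WT. Without R342C replicate 1 without LIF 13 fell in R342C, and without WT replicate 2 without LIF 10 rose and 15 fell in WT.

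The 7 genes that rose without LIF in all 4 lines, against 15.4% of all tested genes, were Rasgrp3, Epcam, Ehd3, Rhoq, Kcng3, Atl2 (a GTPase that fuses endoplasmic reticulum) and Zfp36l2 (an mRNA decay factor). The call of Zfp36l2 in K365T ended with the compared groups alone (limma with Benjamini-Hochberg adjustment, adjusted p = 0.0614). It also ended without K365T replicate 1 without LIF (log2 response 0.34) or K365T replicate 1 in LIF (0.40).

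Rasgrp3, an exchange factor that activates Ras, passed the filter only through the libraries without LIF, with a mean of 84.4 normalised counts there and 4.34 in LIF, so that it had to differ and its values carry no test. Its normalised counts in R342C cells were 63.7 and 115 without LIF and 4.72 and 4.65 in LIF, and in K365T cells 76.9 and 153 and 5.53 and 5.13. In Q418R cells they were 67.0 and 86.6 without LIF and 9.53 and 2.99 in LIF, and in WT cells 76.6 and 37.0 and 0 and 2.16. The fitted log2 responses were 3.37, 3.59, 3.04 and 3.53 ± 0.45 (SE) in R342C, K365T, Q418R and WT, above those of Epcam. On TPM they were 2.03, 2.29, 1.86 and 1.64, below those of Epcam at 2.57, 2.53, 2.29 and 2.53. The WT value in LIF rests on 2 reads over both libraries, against 113 reads without LIF, a ratio of 64.5 with a 95% exact binomial interval of 17.4 to 539 for counting error. For the same reason the mutant over WT ratio of Rasgrp3 in LIF was imprecise, 5.18 (1.13 to 48.1) for R342C, 5.88 (1.25 to 55.2) for K365T and 6.59 (1.44 to 61.2) for Q418R.

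Epcam, an adhesion protein of epithelial and embryonic stem cells, had normalised counts without LIF of 4864 and 4665 in R342C cells, 3992 and 3375 in K365T cells and 4163 and 4322 in Q418R cells, against 2315 and 3116 in WT cells. In LIF they were 821 and 844 in R342C cells, 738 and 585 in K365T cells and 949.6 and 962 in Q418R cells, against 505 and 433 in WT cells. No library without LIF overlapped a library in LIF, in any line. The log2 response was 2.51, 2.47, 2.15 and 2.51 in R342C, K365T, Q418R and WT, each ± 0.15 (SE; limma, adjusted p = 1.2e-08, 1.8e-08, 5.6e-08 and 1.1e-08).

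Ehd3 had normalised counts without LIF of 135 and 184 in R342C cells, 148 and 248 in K365T cells and 187 and 185 in Q418R cells, against 79.4 and 43.8 in WT cells. Cultures in LIF held 20.4 and 37.2 in R342C cells, 38.7 and 73.9 in K365T cells and 50.0 and 28.9 in Q418R cells, against 7.79 and 8.64 in WT cells. The response was 2.35, 1.76, 2.17 and 2.37 (limma, adjusted p = 2.3e-04, 0.00244, 4.5e-04 and 2.1e-04). Rhoq, whose counts stand above, responded by 2.02, 2.13, 1.70 and 2.05, and Kcng3 by 2.08, 1.91, 2.19 and 1.93, in the same order of lines.

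**Figure D5:**
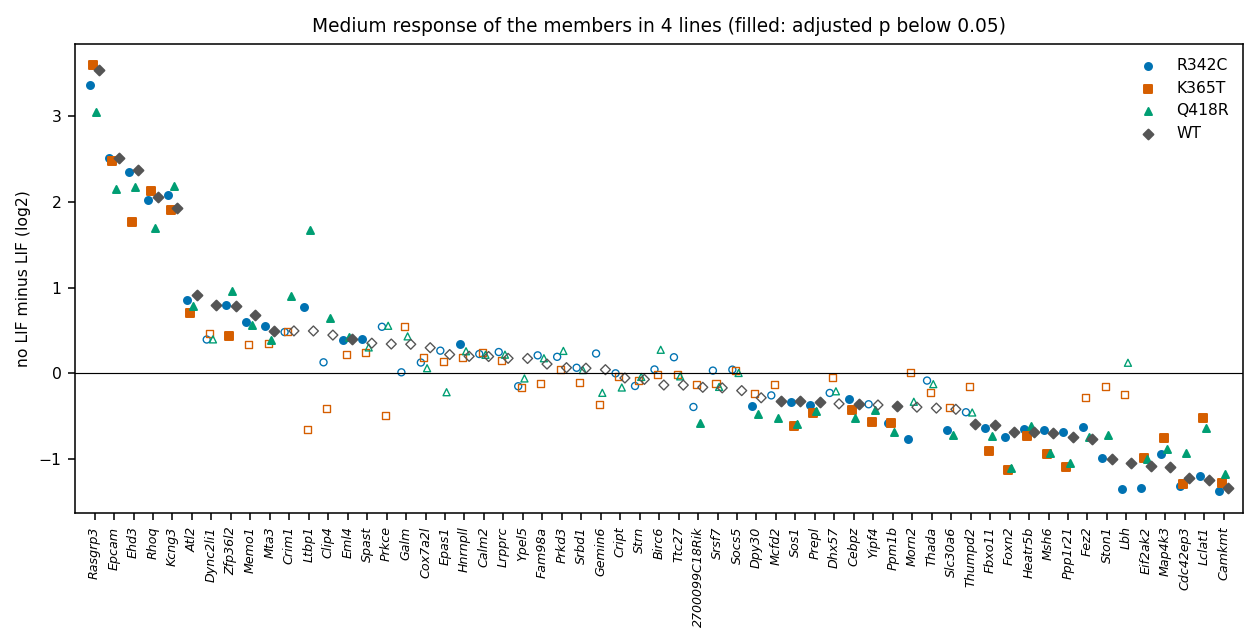
Log2 difference between no LIF and LIF (y axis) of the 59 genes, ordered by the WT value (x axis), in R342C, K365T, Q418R and WT. Filled symbols passed an adjusted p of 0.05 in limma and open symbols did not. The 5 genes at the left, Rasgrp3, Epcam, Ehd3, Rhoq and Kcng3, are high in every line, and the symbols of the 4 lines lie close together for most genes.

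The 14 genes that fell without LIF in all 4 lines, against 16.3% of all tested genes, were Camkmt, Cdc42ep3, Lclat1, Map4k3, Eif2ak2, Heatr5b, Cebpz, Sos1, Ppm1b, Prepl, Msh6, Fbxo11, Foxn2 and Ppp1r21. Camkmt, the methyltransferase of calmodulin, had normalised counts without LIF of 127 and 108 in R342C cells, 142 and 144 in K365T cells and 155 and 147 in Q418R cells, against 62.2 and 49.4 in WT cells. The LIF cultures had 301 and 323 in R342C cells, 327 and 379 in K365T cells and 385 and 309 in Q418R cells, against 156 and 137 in WT cells. It had the largest fall in R342C, Q418R and WT, at -1.38, -1.17 and -1.34, with -1.28 in K365T (SE 0.20; limma, adjusted p = 5.1e-05, 2.2e-04, 6.4e-05 and 1.1e-04). Cdc42ep3, whose counts stand above, fell most in K365T, by 1.29, and by 1.32, 0.93 and 1.22 in R342C, Q418R and WT.

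Lclat1, an acyltransferase of phospholipid remodelling, had normalised counts without LIF of 281 and 281 in R342C cells, 377 and 372 in K365T cells and 324 and 354 in Q418R cells, against 130.2 and 154 in WT cells. With LIF present, the values were 632 and 664 in R342C cells, 580.3 and 499.9 in K365T cells and 530.2 and 525 in Q418R cells, against 309 and 377 in WT cells. Its log2 response was -1.19, -0.52, -0.63 and -1.25 in R342C, K365T, Q418R and WT (limma, adjusted p = 2.0e-05, 0.0135, 0.00376 and 1.3e-05). The call in K365T ended with the compared groups alone (limma, adjusted p = 0.0725). It also ended without K365T replicate 2 without LIF (log2 response -0.51) or K365T replicate 1 in LIF (-0.41).

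Map4k3, a kinase of amino acid and stress signalling, had normalised counts without LIF of 1253 and 1423 in R342C cells, 1054 and 1383 in K365T cells and 1397 and 1338 in Q418R cells, against 597 and 518 in WT cells. In LIF they were 2624 and 2532 in R342C cells, 2018 and 2073 in K365T cells and 2503 and 2539 in Q418R cells, against 1248 and 1130 in WT cells. Its response was -0.95, -0.76, -0.88 and -1.09 (SE 0.13; limma, adjusted p = 3.9e-05, 3.0e-04, 7.6e-05 and 1.0e-05). Msh6 had 10610 and 10920 in R342C cells, 11700 and 10210 in K365T cells and 10060 and 9621 in Q418R cells, against 5338 and 4594 in WT cells, without LIF. In LIF it had 15780 and 18340 in R342C cells, 18960 and 23090 in K365T cells and 17780 and 19850 in Q418R cells, against 8559 and 7562 in WT cells. Mutant cells without LIF thus had more Msh6 RNA than WT cells in LIF.

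Smaller falls of the 14 were less stable. The fall of Cebpz, a nucleolar and CCAAT-binding protein, ended in R342C without any 1 of its 4 libraries (limma, adjusted p = 0.0549 to 0.215), in K365T without K365T replicate 2 in LIF (0.0594), and in WT without WT replicate 2 without LIF (0.146) or WT replicate 1 in LIF (0.157). That of Sos1, an exchange factor that activates Ras, ended in R342C without replicate 1 (0.0692) or 2 (0.0557) without LIF or replicate 2 in LIF (0.120), and in WT without replicate 1 without LIF (0.129) or replicate 1 in LIF (0.101). That of Prepl, a serine hydrolase, ended in R342C without replicate 2 without LIF (0.102) or replicate 1 (0.0693) or 2 (0.0978) in LIF, in Q418R without replicate 1 in LIF (0.0587), and in WT without replicate 2 without LIF (0.212) or replicate 1 in LIF (0.199). That of Ppm1b in WT ended without WT replicate 2 in LIF (0.0513). On TPM the falls of Cebpz and Prepl in all 4 lines, of Sos1 in R342C and WT and of Heatr5b in Q418R missed the threshold. With upper-quartile scaling those of Cebpz in R342C and of Sos1 and Prepl in WT missed it. The fall of Cebpz in R342C also missed it with no filter. With the compared groups alone those of Cebpz, Sos1 and Prepl in WT missed it.

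By role, the counts can be read only against the shares of all tested genes given above, and no role group was tested. Of the 15 membrane, cytoskeleton and transport genes 6 rose and 4 fell in R342C, 4 and 3 in K365T, 6 and 6 in Q418R, and 6 and 5 in WT. Of the 14 signalling genes 4 rose and 4 fell in R342C, 2 and 4 in K365T, 5 and 4 in Q418R, and 3 and 4 in WT. Rasgrp3, which carries no test, is among these rises in each line. Of the 7 genes of chromatin, transcription and DNA repair 1 rose and 5 fell in R342C, 0 and 3 in K365T, 1 and 4 in Q418R, and 1 and 4 in WT. Mta3 was the one that rose, at 0.55 in R342C, 0.39 in Q418R and 0.50 in WT, with 0.34 in K365T. Its call ended in Q418R with no filter (limma, adjusted p = 0.0518). In Q418R it also ended without replicate 1 or 2 without LIF or replicate 1 in LIF (log2 response 0.30 to 0.41). In WT it ended without replicate 1 without LIF (0.39). Of the 6 metabolic genes 0 rose in any line, and 4 fell in R342C, 3 in K365T, 4 in Q418R and 3 in WT, with median responses of -0.51, -0.43, -0.54 and -0.38. The median responses of the chromatin, transcription and repair genes were -0.38, -0.24, -0.47 and -0.36. Of the 11 genes of RNA and translation 2 rose and 1 fell in R342C, 1 and 1 in K365T, 1 and 1 in Q418R, and 1 and 2 in WT. Fbxo11 was the only one of the 3 ubiquitin genes that passed, and it fell in all 4 lines. In all, 19 of the 59 genes passed in no line, against 36.6% of all tested genes, among them Calm2, Birc6, Srsf7, Epas1 (the oxygen-regulated factor HIF-2α) and Ypel5.

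Differences in medium response between a mutant line and WT are differences of values that the rule names, and are given as a description. The difference between a mutant's response and that of WT passed for 0 of the 59 genes in each of R342C, K365T and Q418R (limma, adjusted p below 0.05, with 0, 5 and 4 genes at an unadjusted p below 0.05). Over all tested genes 0%, 0.659% and 0.141% passed. With edgeR 0 passed in each, and with DESeq2 1 passed in K365T, Ston1, and 0 in the other lines. The differences of the 59 genes ran from -0.40 (Dync2li1) to 0.33 (Ttc27) in R342C, from -1.14 (Ltbp1) to 0.85 (Ston1) in K365T and from -0.49 (Rasgrp3) to 1.18 (Ltbp1) in Q418R on the log2 scale. For Ston1 in K365T the difference was 0.85 ± 0.23 (SE). For Ltbp1, which binds latent TGF-β, the SE was 0.39.

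Levels of the mutant lines were then set side by side. A difference between 2 mutants is a difference of the mutant over WT values that entered the choice, so the counts describe the 59 genes and nothing is read from them. K365T passed the threshold against R342C at 3 of the 59 genes without LIF and at 5 in LIF (limma, adjusted p below 0.05), against 8.8% and 9.08% of all tested genes. K365T passed against Q418R at 0 without LIF (10 at an unadjusted p below 0.05) and at 3 in LIF, against 3.37% and 6.08%. Q418R passed against R342C at 0 in each medium (4 and 4 at an unadjusted p below 0.05), against 2.05% and 3.12%. DESeq2 called 7, 8, 3 and 8 genes in the first 4 of these comparisons, and edgeR 3, 5, 0 and 3, while each called 0 for Q418R against R342C in either medium. The median difference of the 59 genes between K365T and R342C was -0.18 without LIF and -0.07 in LIF, against -0.03 and -0.02 over all tested genes.

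Ston1 in LIF was lower in K365T cells than in R342C cells, by a log2 difference of -0.93 ± 0.17 (SE), and than in Q418R cells, by -0.81 ± 0.17, with the library values given above and no overlap. Clip4 in LIF was higher in K365T than in Q418R cells, by 1.11 ± 0.23, also with no overlap.

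Ppm1b, a protein phosphatase, had normalised counts without LIF of 3105 and 2912 in R342C cells, 2330 and 2036 in K365T cells and 2458 and 2454 in Q418R cells, against 1635 and 1663 in WT cells. Cultures in LIF held 4640 and 4388 in R342C cells, 3454 and 3051 in K365T cells and 3717 and 4179 in Q418R cells, against 2120 and 2164 in WT cells. K365T was below R342C by a log2 difference of -0.46 without LIF and -0.47 in LIF (SE 0.11 each), with no overlap in either medium. Eif2ak2, the double-stranded RNA kinase PKR, had 350.4 and 356 in R342C cells, 550 and 505 in K365T cells and 377 and 379.9 in Q418R cells, against 204 and 186 in WT cells, without LIF. In LIF it had 853 and 954 in R342C cells, 1068 and 1035 in K365T cells and 702 and 828 in Q418R cells, against 456 and 384 in WT cells. Without LIF K365T was above R342C by 0.57 ± 0.14 (SE).

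The number of genes that passed between mutant lines rested on single libraries. For K365T against R342C in LIF it was 1 and 0 without R342C replicate 1 and 2, and 2 and 1 without K365T replicate 1 and 2, in place of 5. Without LIF it was 0 without either R342C library and 5 without K365T replicate 1, in place of 3. For K365T against Q418R in LIF it was 0 and 1 without K365T replicate 1 and 2, 1 and 0 without Q418R replicate 1 and 2, and 5 without either WT library of the cultures without LIF, in place of 3.

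The 59 genes had few other features in common. There were 32 on the plus strand and 27 on the minus strand, and 58 are annotated as protein coding. Of the 59, 10 overlap another tested gene on the opposite strand, Crim1 with Fez2, Dhx57 with Morn2, Msh6 with Fbxo11, Cebpz with Cebpzos, Sos1 with Arhgef33, Rhoq with Pigf and 2700099C18Rik with Gm1976. The library kit keeps strand, but whether the counting used it is not given in the sources used here, so that reads of these partners may be mixed. Across the 59 genes the mutant minus WT difference without LIF and that in LIF had a Pearson r of 0.59 in R342C, 0.59 in K365T and 0.35 in Q418R, and the medium response of a mutant and that of WT had 0.98, 0.92 and 0.94. All of these include Rasgrp3, which carries no test and had the largest medium response in each line. Its part in them was not tested. The differences from WT that were paired come from the same lines, and the responses that were paired from a mutant line and WT. The genes are not independent, and the values are descriptions without a test.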

How the data were processed

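RNA-seq libraries of 4 lines in 2 media were analysed (16 libraries, 2 per group). Per the submitters' processing notes, Trim Galore, STAR, DESeq2 and the build mm10 were used. Versions, the counting tool and the annotation are not given in the sources used here. Values in the main deposited table are a signal, reads scaled by the authors with 1 factor per library (normalised counts), in which 1 read was worth 0.779 to 1.19. Divided by it, 100% of the values were whole within 0.05. The second deposited table holds the authors' TPM.

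After 4 was added to each normalised count, log2 values went into limma 3.58.1 (trend, in R 4.3.3), with 1 mean for each of 8 groups and 8 residual degrees of freedom, for the 17757 genes with a mean of at least 10, with Benjamini-Hochberg adjustment and a threshold of 0.05. The constant 4 compresses log2 differences of low genes. Alternatives used a constant of 1, no filter, a mean of at least 50, TPM, upper-quartile scaling, scaling without chromosome 17, edgeR 4.0.16 and DESeq2 1.42.0 on recovered reads, the replicate number as a block, the compared groups alone and leaving out each library. A replicate block within each line was added after seeing the data. Positions came from GENCODE M21 (mm10) and promoters from RefSeq (GRCm38.p6). The fit was tested on simulated data.

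The 59 genes, the role groups, the marker lists and the tests were chosen with earlier results of these data known. Named with every library are the 3 genes with the largest and the 2 with the smallest average difference from WT among those with a mean of at least 100, the 2 most proximal and most distal genes, the 4 largest rises and falls with the medium in WT, the largest in each mutant line, and the 2 smallest p in each comparison of mutants. Dpy30, Msh6 and some genes named without library values were added after their values were seen.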

Additional observations from a re-analysis of the deposited data

Results flagged for a closer look

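Differences between mutant lines past the limma threshold, Benjamini-Hochberg adjusted over all tested genes, were flagged for 8 of the 59 genes. They were 5 of the 59 for K365T against R342C in LIF, against 9.08% of all tested genes, 3 for K365T against R342C without LIF, against 8.8%, and 3 for K365T against Q418R in LIF, against 6.08%, so that none of the 3 shares is above that of all genes. The values entered the choice of the genes and are a description. K365T against R342C in LIF gave log2 differences of 0.78 for Clip4, -0.84 for Galm, galactose mutarotase, -1.22 for Lbh, a transcription cofactor, -0.47 for Ppm1b and -0.93 for Ston1. K365T against R342C without LIF gave 0.57 for Eif2ak2, -0.54 for Mta3 and -0.46 for Ppm1b. K365T against Q418R in LIF gave 1.11 for Clip4, 1.27 for Ltbp1 and -0.81 for Ston1. In each of these 11 differences both libraries of 1 line lay on the same side of both libraries of the other. Each call ended on leaving out at least 1 of the libraries compared.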

How the results depend on the processing

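No medium response or difference between mutants that passed the threshold, and no median difference from WT, reversed its direction under any alternative. Single differences from WT and median medium responses that did are given with their values above. On TPM, which moved the median of all genes by 0.12 to 0.17 in the 4 comparisons R342C in both media and K365T and Q418R without LIF, the median differences from WT were 1.13 (R342C, LIF), 1.14 (R342C, no LIF), 0.99 (K365T, LIF), 0.94 (K365T, no LIF) and 1.09 (Q418R, no LIF). For K365T without LIF the median was 0.79 at a mean of at least 50 and 0.92 with upper-quartile scaling. Without 1 library the medians were 0.97 to 1.05 and 0.99 to 1.06 for R342C, 0.81 to 0.92 and 0.85 to 0.92 for K365T, and 0.92 to 1.01 and 0.97 to 1.00 for Q418R, without LIF and in LIF.

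The count of genes that rose in K365T was 14 with upper-quartile scaling, 11 with DESeq2 and 13 with a replicate block within each line, in place of 7. Without 1 library 10 to 14 rose and 13 to 21 fell in R342C, 6 to 10 and 13 to 15 in K365T, 11 to 14 and 18 to 21 in Q418R, and 10 to 13 and 15 to 21 in WT. K365T against R342C in LIF gave 3 genes with no filter, 1 on TPM and 8 with DESeq2, in place of 5, and 0 to 6 without 1 library. Without LIF it gave 0 on TPM, 7 with DESeq2 and 0 with the compared groups alone, in place of 3, and 0 to 5 without 1 library. K365T against Q418R in LIF gave 1 on TPM and 8 with DESeq2, in place of 3, and 0 to 5 without 1 library. Without LIF it gave 1 at a mean of at least 50, 1 with upper-quartile scaling, 1 with scaling without chromosome 17 and 3 with DESeq2, in place of 0, and 0 to 1 without 1 library. Q418R against R342C in LIF gave 2 with the compared groups alone, in place of 0. The response of K365T against that of WT gave 1 gene with DESeq2, in place of 0. Fewer libraries, or fewer degrees of freedom with the compared groups alone, leave less to test with. Some counts nevertheless went up under these settings, and the cause of the changes was not tested.

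The replicate number as a block moved K365T against R342C without LIF to 5 genes, in place of 3, and K365T against Q418R without LIF to 2, in place of 0. Residuals of same-numbered libraries correlated at -0.39 to 0.45 over 28 pairs of groups, over 0.1 in 13, so that the numbers were not taken to pair the libraries across lines. The no LIF and LIF libraries of 1 line correlated at 0.27 in R342C, 0.27 in K365T, 0.30 in Q418R and 0.28 in WT, from 2 numbers a line. A replicate block within each line, added after seeing the data, gave 16 rises and 21 falls in R342C, 13 and 16 in K365T, 17 and 21 in Q418R and 15 and 23 in WT. With 2 libraries a group, differences that miss the threshold may lie below what could be detected. Calls held under every alternative that tested the gene for 22 of 33 genes in R342C, 17 of 22 in K365T, 23 of 34 in Q418R and 21 of 30 in WT. Rasgrp3, which carries no test and was left out at a mean of at least 50, is among those held in each line.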
